A study of Mus musculus with 6 samples.

Results

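The proteasome genes of mouse gastrocnemius, a hindlimb calf muscle, were followed from late gestation to adulthood. Every gene entry whose symbol begins with Psma, Psmb, Psmc, Psmd, Psme, Psmf or Psmg was taken, which gave 49 of the 23367 entries of the deposited table. Of these, 48 encode subunits, activators, an inhibitor or assembly factors of the proteasome. Psmc3ip carries the prefix but encodes a partner of Psmc3 in meiotic recombination and is not a subunit. RNA-seq was performed on 6 libraries from wild-type mice of the FVB strain, which had received no treatment, at 5 stages. The embryonic day 18.5 (E18.5) library held RNA pooled from several male and female mice and the postnatal day 2 (PN2) library RNA pooled from several males. Replicates 1 and 2 at PN14, the library at PN28 and that of the adult at 22 weeks each came from 1 male mouse. Since PN14 alone had a replicate, the spread between mice at every other stage was taken to be that of the PN14 pair, and a difference between other stages rests on 1 library each.

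The proteasome degrades proteins that carry ubiquitin chains. Its core particle is a barrel of stacked rings, with outer rings of alpha subunits (Psma) that gate the entrance and inner rings of beta subunits (Psmb). Psmb5, Psmb6 and Psmb7 hold the catalytic sites, and interferon and cells of the immune system replace them with Psmb8, Psmb9 and Psmb10, respectively, to form the immunoproteasome, which favours the production of peptides for antigen presentation. The 19S regulatory particle caps the core: its Psmc subunits are ATPases that unfold the substrate, and its Psmd subunits include ubiquitin receptors, the deubiquitinase Psmd14 and structural parts of the base and lid. Psme proteins are alternative caps. Psme1 and Psme2 form the interferon-inducible PA28 ring, Psme3 a nuclear relative of it, and Psme4 is the single-chain cap PA200. Skeletal muscle is known for a proteasome pathway that is engaged in growth, remodelling and atrophy.

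Between 125402932 and 157868359 counts fell on genes in each library. The 20 most abundant genes held 16.0% of the counts at E18.5 and 36.9% in the adult, and the summed FPKM of 8 myofibre markers went from 37580.1 to 120584. The sign of moderate differences depended on how the libraries were scaled. Normalized CPM below are counts scaled to the library total and by TMM, which sets the bulk of genes level between libraries. FPKM, which are per length and so can be compared between genes, were not scaled beyond the library total. The 6 libraries were sequenced on separate lanes, so lane and stage cannot be told apart. In whole muscle, fewer cells of a type and less RNA per cell cannot be told apart either.

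The median log2 fold change from E18.5 to adult was higher for the proteasome genes than for all genes tested, and Psme4, a cap of the core, had the largest rise. Between E18.5 and the adult, 32 of the 48 members tested rose and 2 fell, 23 of these at least 2-fold, by edgeR's quasi-likelihood test at an adjusted p under 0.05. Among all 16882 genes tested 27.4% rose and 27.4% fell. When libraries were scaled by size alone the split turned to 1 member up (Psme4) and 9 down, against 8.88% up and 47.6% down among all genes. A change of scaling shifts all genes of a comparison by nearly the same amount, so the distance between the members and all genes could hardly depend on it. The median log2 fold change was 0.84 for the members and -0.05 for all genes with TMM. With library size the medians were -0.18 and -1.08, a difference of 0.90 under both scalings. Among genes with a mean of at least 1 CPM the difference was 0.76. The members held between 0.415% and 0.498% of all counts in the 6 libraries, lowest at E18.5 and highest at PN2. Psmb11, the thymus-specific catalytic subunit, had 2 to 8 counts per library and was not tested.

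**Figure D1:**
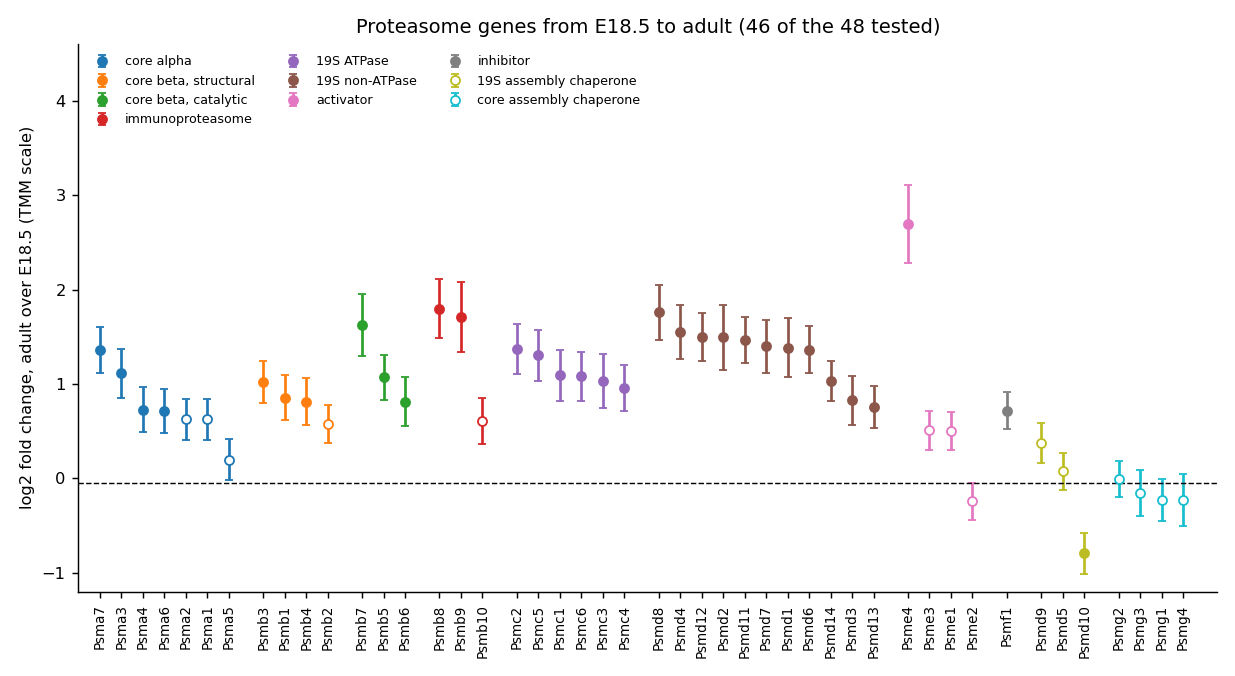
Log2 fold change from E18.5 to adult (y axis, TMM scale, bars show SE) of each gene, grouped by class along the x axis. Filled points had an adjusted p under 0.05 and the dashed line marks the median of all genes tested (-0.05). Psme4 stood highest at 2.70 and Psmd10 lowest at -0.79, and all 17 subunits of the 19S particle lay above the line, whereas the chaperones of core assembly lay between -0.23 and -0.0034. Psma8 and Psmc3ip are not drawn.

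Promoters were read from RefSeq. The table (GRCm38.p6, 250 bases before to 50 after the start) held 41 of the 49 members. Psmb7 had no entry and was not searched. In these windows 3 motifs were searched on both strands. Their matches describe letters and were not tested as sites. The antioxidant response element TGACNNNGC, bound by the factors Nfe2l1 and Nfe2l2 that drive proteasome genes, was in 6 of 41 (14.6%) and in 3781 of all 27025 promoters. Its members were Psmb5, Psmb6, Psmc6, Psmd9, Psmd12 and Psme4. Shown are those in catalytic subunits that rose, in the riser Psmd12 and in Psme4, in 30 bases with the match in capitals, Psmb5 at chr14:54618023-54618052 (minus strand), Psmb6 at chr11:70525338-70525367 (plus), Psme4 at chr11:30771758-30771787 (plus) and Psmd12 at chr11:107479278-107479307 (plus).
Psmb5: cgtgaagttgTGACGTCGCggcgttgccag
Psmb6: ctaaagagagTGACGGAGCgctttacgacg
Psme4: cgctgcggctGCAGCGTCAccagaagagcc
Psmd12: tctGCTGTGTCAcatttgcccccctcagac

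The matches of Psmb5, Psmb6 and Psme4 begin 47, 9 and 7 bases before the start, and those of Psme4 and Psmd12 read on the opposite strand. The interferon-stimulated response element, searched as GAAA, any 2 bases and GAAA, was in 5 of 41 promoters (12.2%) and in 3.99% of all. It was not found in the windows of Psmb8, Psmb9 and Psmb10 but in those of Psme1, Psmb3, Psmd4, Psmd9 and Psmg4, which differ in class and in course. Printed are the cap subunit Psme1 at chr14:55578493-55578522 (plus), the beta subunit Psmb3 at chr11:97703261-97703290 (plus), the ubiquitin receptor Psmd4 at chr3:95042675-95042704 (minus) and the chaperone Psmg4 at chr13:34162969-34162998 (plus).
Psme1: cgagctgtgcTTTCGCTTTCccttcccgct
Psmb3: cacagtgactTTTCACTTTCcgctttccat
Psmd4: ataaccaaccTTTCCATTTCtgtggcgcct
Psmg4: gcgcgcatctGAAAGTGAAAgagcgttccg

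CCAAT boxes, bound by the factor NF-Y, were in 15 of 41 (36.6%) and in 41.1% of all promoters. Psmb9, which rose, has 1 just before its start, and Psmd10, which fell, has 3, of which the one farthest from the start is printed. The stretch printed for Psmb9 is chr17:34187321-34187350 (minus strand) and that for Psmd10 is chrX:140956924-140956953 (minus strand).
Psmb9: gcgcagccgctgATTGGaaagccgagcccc
Psmd10: tgtcatcctgggCCAATtccaccggcaact

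The 14 subunits of the constitutive core all had higher normalized CPM in the adult than at E18.5, and 10 of them passed the test, against the 27.4% of all genes that rose, with a median log2 fold change of 0.81. With library size 10 of the 14 were lower in the adult, none rose and Psma5 fell, against 8.88% up and 47.6% down among all genes. All 3 catalytic subunits rose. Psmb7, which carries the trypsin-like site, had normalized CPM of 114 for E18.5, 138 for PN2, 308 and 242 for the PN14 mice, 311 for PN28 and 349.7 for the adult, a rise of 1.62 ± 0.33 (SE, adjusted p = 0.00896) on the log2 scale. The adult was highest and the embryonic library lowest, and the PN14 mice differed from each other by less than either differed from PN2. Psmb5, with the chymotrypsin-like site, had 62.2 for E18.5, 69.4 for PN2, 148 and 135 for the PN14 mice, 138 for PN28 and 131 for the adult. It rose by 1.07 ± 0.24 (SE, adjusted p = 0.0124) from E18.5 to adult, and its highest library was PN14 replicate 1. Psmb6, with the caspase-like site, had 95.7 for E18.5, 113 for PN2, 193 and 173 for the PN14 mice, 181 for PN28 and 168 for the adult, and its log2 fold change of 0.81 ± 0.26 (SE, adjusted p = 0.0406) was -0.21 when scaled by library size. Those of Psmb5 and Psmb7 stayed above 0 with library size, at 0.05 and 0.60, without passing.

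Among the non-catalytic beta subunits Psmb1, Psmb3 and Psmb4 rose, with values of -0.17, -0.0018 and -0.21 under library size. Psmb3 had the largest log2 fold change of these, 1.02 ± 0.22 (SE, adjusted p = 0.0115), and Psmb2 the smallest, 0.58 ± 0.20 (SE, adjusted p = 0.053). Of the 7 alpha subunits Psma3, Psma4, Psma6 and Psma7 rose, of which Psma4 and Psma6 were at -0.30 and -0.31 with library size. The Wald test of DESeq2 did not call Psma4 (adjusted p = 0.0575) or Psma6 (adjusted p = 0.0595). Psma7 led with normalized CPM of 60.9 for E18.5, 77.5 for PN2, 117 and 101 for the PN14 mice, 122 for PN28 and 156 for the adult and a log2 fold change of 1.36 ± 0.25 (SE, adjusted p = 0.00618). Psma5 was at the other end of the core, with 78.1 for E18.5, 96.9 for PN2, 86.7 and 82.6 for the PN14 mice, 90.02 for PN28 and 89.5 for the adult. Its libraries lay within a narrow band and its log2 fold change of 0.20 ± 0.22 (SE, adjusted p = 0.468) did not pass.

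The core subunits are built into the barrel in equal numbers, and their levels per length were set side by side within each library. Psmb7 had the highest FPKM in all 6 libraries, with 180.3 for E18.5, 219.5 for PN2, 283 and 266 for the PN14 mice, 267 for PN28 and 273 for the adult. Psma1, an alpha subunit, was lowest at E18.5 and PN2, Psmb2 at PN14 and PN28, and Psma5 in the adult. FPKM of Psma5 were 97.5 for E18.5, 121 for PN2, 62.6 and 71.3 for the PN14 mice, 60.7 for PN28 and 54.9 for the adult. The ratio of the highest to the lowest core subunit was 2.33 for E18.5, 2.53 for PN2, 5.13 and 4.31 for the PN14 mice, 5.32 for PN28 and 4.97 for the adult, so that both PN14 values and the later ones lay above both early ones. The summed FPKM of the 14 genes went from 1652 at E18.5 to 1980.0 at PN2 and 1567 in the adult. Unlike the ratio, this sum depends on the scaling between libraries, here the library total. With TMM all 14 genes were higher in the adult than at E18.5.

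**Figure D2:**
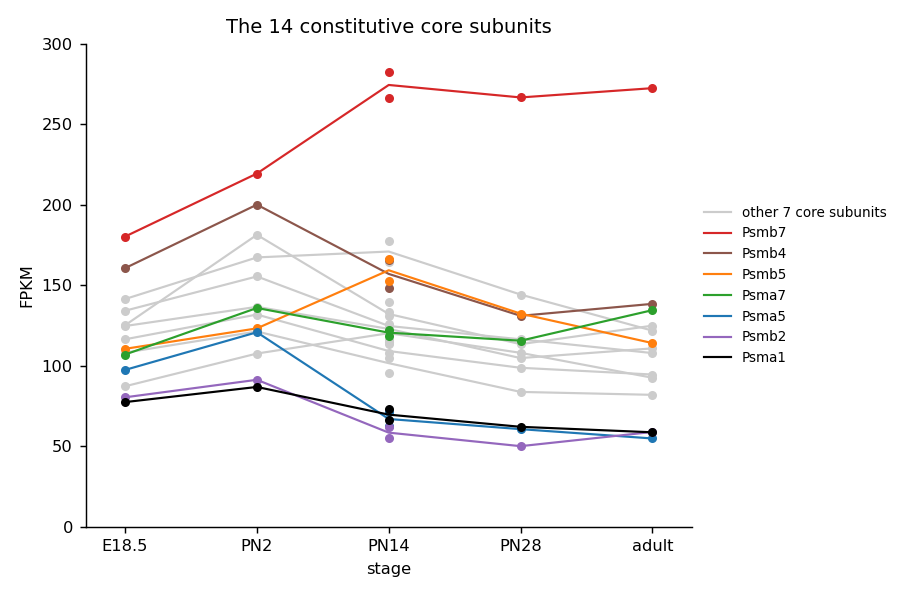
FPKM (y axis) of the 14 constitutive core subunits by stage (x axis). Each point is a library and lines pass through the mean of the 2 PN14 mice. The subunits lay between 77.5 and 180.3 at E18.5 and between 54.9 and 273 in the adult, with Psmb7 above the others throughout.

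Psma8, the alpha subunit of the spermatocyte proteasome and the counterpart of Psma7, was a trace component at E18.5. Its counts were 70 for E18.5, 40 for PN2, 4 and 5 for the PN14 mice, 3 for PN28 and 2 for the adult, or 0.27 FPKM at E18.5 and 0.01 in the adult. From PN2 to PN14 it fell by 2.30 ± 0.63 (SE, adjusted p = 0.0407) on the log2 scale, a call that the Wald test of DESeq2 did not make (adjusted p = 0.457). Psma8 passed the expression filter only through its early libraries. A fall was therefore the only call open to it from PN2 to PN14 or from E18.5 to adult, where it is counted among the members that fell. With a mean of at least 1 CPM required, it was not tested. The normalized CPM at E18.5 was 15.5 times that in the adult, with a 95% interval for counting error alone from 4.15 to 131.

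The immunoproteasome genes were transcribed at a small fraction of their constitutive counterparts in every library, and Psmb8 and Psmb9 stepped up between PN2 and PN14 while Psmb10 ended nearer to where it began. The difference between these genes was not tested. Normalized CPM of Psmb8 were 2.19 for E18.5, 2.06 for PN2, 6.51 and 8.24 for the PN14 mice, 7.99 for PN28 and 7.61 for the adult, a rise of 1.84 ± 0.29 (SE, adjusted p = 0.00987) from PN2 to PN14. Psmb9 had 1.01 for E18.5, 1.04 for PN2, 3.04 and 3.82 for the PN14 mice, 3.74 for PN28 and 3.29 for the adult and rose by 1.73 ± 0.34 (SE, adjusted p = 0.0164) over the same interval. For both genes the libraries fell into a low pair, E18.5 and PN2, and a high group, PN14, PN28 and adult, with no overlap. This split was not particular to them: the libraries of Psmb10, Psmb5, Psmb6 and Psmb7 separated in the same way. The share of all genes with such a split was not counted. Psmb10 had 8.33 for E18.5, 7.70 for PN2, 14.001 and 16.9 for the PN14 mice, 15.7 for PN28 and 12.7 for the adult. It rose by 1.01 ± 0.22 (SE, adjusted p = 0.0219) from PN2 to PN14, but from E18.5 to adult its log2 fold change was 0.61 ± 0.24 (SE, adjusted p = 0.0771), against 1.80 ± 0.32 (SE, adjusted p = 0.00564) for Psmb8 and 1.71 ± 0.37 (SE, adjusted p = 0.0113) for Psmb9.

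Within each pair of interchangeable subunits the share of FPKM held by the immunoproteasome form does not depend on scaling between libraries. Psmb8 held, of its sum with Psmb5, 2.40 for E18.5, 2.03 for PN2, 2.98 and 4.09 for the PN14 mice, 3.89 for PN28 and 3.91 for the adult percent. Psmb9 held 1.36 for E18.5, 1.18 for PN2, 2.02 and 2.80 for the PN14 mice, 2.63 for PN28 and 2.50 for the adult percent of its sum with Psmb6. Both shares were higher in each of the 4 later libraries than in either early one, and the PN14 means were 3.53% ± 0.784 and 2.41% ± 0.551 (SD, n = 2). Psmb10 started higher and ended lower, with 5.22 for E18.5, 4.01 for PN2, 3.31 and 4.98 for the PN14 mice, 3.65 for PN28 and 2.67 for the adult percent of its sum with Psmb7. The PN14 mice lay on either side of the PN2 value, at a mean of 4.15% ± 1.18 (SD, n = 2). On the log2 scale the ratio of Psmb8 to Psmb5 moved by 0.81 from PN2 to PN14, that of Psmb9 to Psmb6 by 1.03 and that of Psmb10 to Psmb7 by 0.02, with SDs between the PN14 mice of 0.33, 0.34 and 0.44. From E18.5 to adult the same ratios moved by 0.72, 0.89 and -1.01. Summed over the 3 pairs, the immunoproteasome forms held 3.27% in the embryo and 2.62% at PN2. The PN14 mean was 3.49% ± 0.876 (SD, n = 2), followed by 3.44% at PN28 and 2.91% for the adult, a range of the same order as the spread of the PN14 pair.

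**Figure D3:**
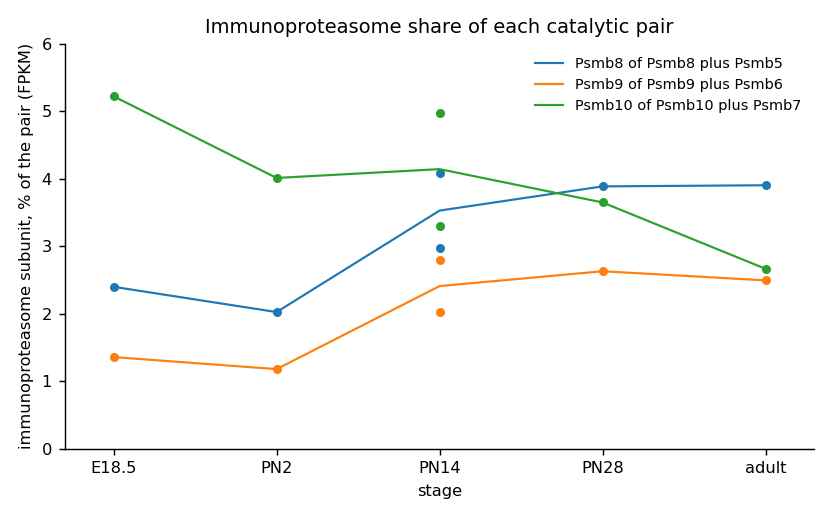
FPKM of each immunoproteasome subunit as a percentage of its sum with the constitutive subunit it replaces (y axis) by stage (x axis). Points are libraries and lines pass through the PN14 mean. The shares of Psmb8 and Psmb9 stood at or below 2.40% at E18.5 and PN2 and reached 3.91% and 2.50% in the adult, while that of Psmb10 was 5.22% at E18.5 and 2.67% in the adult.

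Other cell types express these genes strongly, and their markers are given beside them. Of 11 leukocyte markers measured, none rose and 1 fell from PN2 to PN14 (Itgam). From E18.5 to adult 1 rose (Lyz2) and 3 fell (Emr1, Aif1 and Coro1a). The summed FPKM of the 11 were 72.9 for E18.5, 70.2 for PN2, 37.8 and 52.5 for the PN14 mice, 49.8 for PN28 and 46.5 for the adult, with Cd3e between 0.01 and 0.10. Lyz2 alone gave 29.9 at E18.5 and 33.8 in the adult. Of 6 endothelial markers 2 rose (Emcn and Tie1) and none fell from PN2 to PN14. Their sums were 185 for E18.5, 188 for PN2, 175 and 261 for the PN14 mice, 128 for PN28 and 69.0 for the adult. These sums are scaled to the library total, unlike the normalized CPM of Psmb8 and Psmb9. PN14 replicate 2 was above replicate 1 in the endothelial sum, in the leukocyte sum and in Psmb8, Psmb9 and Psmb10. The part of these cells in the immunoproteasome values was not tested. Psmb9 lies at chr17:34318933-34324709 (mm9, minus strand), where its exons share up to 212 bases with those of Tap1 on the plus strand, and the exons of Psmb8 at chr17:34334666-34338399 share 187 bases with a predicted gene on the minus strand. Since no strand setting was stated for the counting, reads from these stretches cannot be assigned with certainty.

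All 6 ATPases and all 11 non-ATPase subunits of the regulatory particle rose from E18.5 to adult, against 27.4% of all genes, with median log2 fold changes of 1.09 and 1.40. With library size none of the 17 passed, against 8.88% up and 47.6% down among all genes, and Psmc4, Psmd3 and Psmd13 were below 0. The ATPases ranged from 0.96 ± 0.25 (SE, adjusted p = 0.0205) for Psmc4 to 1.37 ± 0.27 (SE, adjusted p = 0.00763) for Psmc2. Normalized CPM of Psmc2 were 74.4 for E18.5, 97.4 for PN2, 137 and 114 for the PN14 mice, 150.0 for PN28 and 193 for the adult, rising at every step through the PN14 mean. Psmc3 had the highest FPKM of the 6 ATPases in each library.

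Among the non-ATPase subunits Psmd8, a lid component, had the largest log2 fold change, 1.76 ± 0.29 (SE, adjusted p = 0.00469), with normalized CPM of 83.7 for E18.5, 101 for PN2, 189.9 and 155 for the PN14 mice, 183 for PN28 and 283 for the adult. The adult library stood clear of the rest and the PN14 and PN28 values overlapped. The ubiquitin receptor Psmd4 (also called Rpn10) had 70.3 for E18.5, 91.4 for PN2, 148 and 116 for the PN14 mice, 156 for PN28 and 206 for the adult and rose by 1.55 ± 0.29 (SE, adjusted p = 0.00651). Psmd2, the largest scaffold of the base together with Psmd1, had 156 for E18.5, 189 for PN2, 290.1 and 223 for the PN14 mice, 317 for PN28 and 441 for the adult and rose by 1.50 ± 0.34 (SE, adjusted p = 0.0137). The deubiquitinase Psmd14, which cuts the ubiquitin chain from the substrate, moved less, with 42.6 for E18.5, 52.2 for PN2, 77.2 and 71.7 for the PN14 mice, 80.6 for PN28 and 87.2 for the adult and a rise of 1.03 ± 0.21 (SE, adjusted p = 0.00931). Psmd13 had the smallest log2 fold change, 0.76 ± 0.22 (SE, adjusted p = 0.031).

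Of the caps other than 19S, Psme4 rose, and no member of the PA28 family passed the test with TMM. Psme4 lies at chr11:30671726-30780361 (mm9, plus strand) in 50 merged exons, none of which overlaps another gene. Its normalized CPM were 82.6 for E18.5, 103 for PN2, 305 and 199.9 for the PN14 mice, 405 for PN28 and 536 for the adult, so that every later stage was above the one before and the PN14 mice, though unlike, lay between PN2 and PN28. It rose by 1.29 ± 0.36 (SE, adjusted p = 0.0411) from PN2 to PN14 and by 2.70 ± 0.41 (SE, adjusted p = 0.00371) from E18.5 to adult, the largest rise of all members, and by 1.67 ± 0.37 (SE, adjusted p = 3.28e-05) with library size. Psme1 had 27.7 for E18.5, 26.6 for PN2, 35.5 and 32.4 for the PN14 mice, 37.1 for PN28 and 39.3 for the adult, Psme2 37.5 for E18.5, 38.1 for PN2, 36.6 and 38.6 for the PN14 mice, 36.96 for PN28 and 31.7 for the adult and Psme3 58.9 for E18.5, 58.9 for PN2, 76.8 and 74.4 for the PN14 mice, 76.7 for PN28 and 83.9 for the adult. Their log2 fold changes from E18.5 to adult were 0.50 ± 0.20 (SE, adjusted p = 0.0757), -0.24 ± 0.20 (SE, adjusted p = 0.328) and 0.51 ± 0.21 (SE, adjusted p = 0.0819), and none passed. With library size Psme2 fell by 1.27 ± 0.40 (SE, adjusted p = 0.00364), beside a median of -1.08 for all genes.

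Per length, the order of the caps turned over. Psme4 had FPKM of 18.7 for E18.5, 23.3 for PN2, 39.98 and 31.4 for the PN14 mice, 49.7 for PN28 and 59.7 for the adult, whereas Psme2 had 64.99 for E18.5, 66.2 for PN2, 36.6 and 46.3 for the PN14 mice, 34.6 for PN28 and 26.9 for the adult and Psme1 43.6 for E18.5, 41.8 for PN2, 32.3 and 35.3 for the PN14 mice, 31.5 for PN28 and 30.4 for the adult. At E18.5 and PN2 Psme4 was the lowest of the 4 genes, and at PN28 and in the adult it was the highest. In the PN14 mice it was above Psme1 and Psme2 in replicate 1 and below both in replicate 2. The ratio of Psme4 to Psme3 was 0.563 for E18.5 and 0.701 for PN2. At PN14 it was 1.33 ± 0.363 (SD, n = 2), and it was 2.12 for PN28 and 2.56 for the adult. Psmf1, which encodes the inhibitor PI31, was low, with FPKM of 6.09 for E18.5, 8.23 for PN2, 5.15 and 6.18 for the PN14 mice, 5.19 for PN28 and 4.92 for the adult. Its normalized CPM rose by 0.72 ± 0.19 (SE, adjusted p = 0.0236) from E18.5 to adult, a value that was -0.31 when scaled by library size. The Wald test of DESeq2 did not call this rise (adjusted p = 0.0929).

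**Figure D4:**
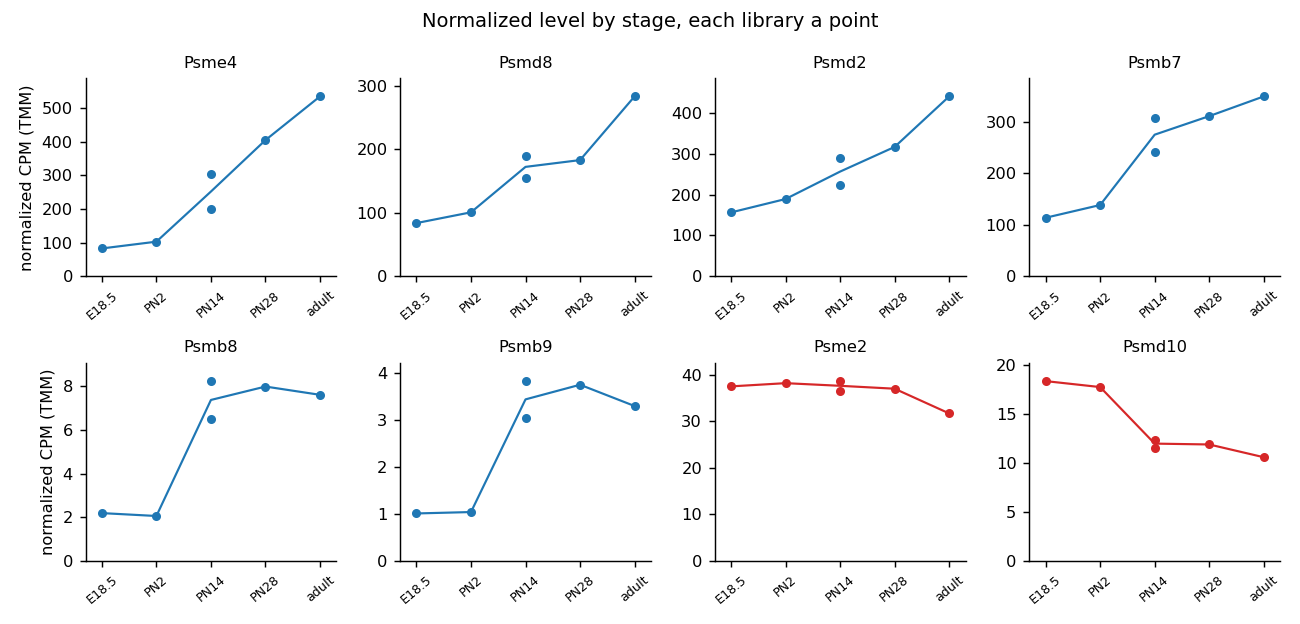
Normalized CPM (y axes, each from 0) of 8 genes by stage (x axes). Points are libraries and lines pass through the PN14 mean. Psme4 went from 82.6 at E18.5 to 536 in the adult and Psmd10 from 18.3 to 10.6, and Psmb8 and Psmb9 formed a step between PN2 and PN14.

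None of the core assembly factors passed the test in either direction with TMM. Psmg1, Psmg2, Psmg3 and Psmg4, which pair up to guide the alpha ring, had log2 fold changes from E18.5 to adult of -0.23 ± 0.22 (SE, adjusted p = 0.415), -0.0034 ± 0.19 (adjusted p = 0.99), -0.16 ± 0.24 (adjusted p = 0.608) and -0.23 ± 0.28 (adjusted p = 0.518). Normalized CPM of Psmg1 were 15.1 for E18.5, 14.6 for PN2, 11.9 and 13.3 for the PN14 mice, 11.6 for PN28 and 12.9 for the adult, with E18.5 and PN2 above all later libraries. How many of all genes had this order was not counted. Psmg2 had 25.04 for E18.5, 29.01 for PN2, 28.3 and 28.1 for the PN14 mice, 29.5 for PN28 and 24.98 for the adult. Psmg3 had 9.49 for E18.5, 7.93 for PN2, 9.29 and 10.2 for the PN14 mice, 9.31 for PN28 and 8.51 for the adult, and Psmg4 7.40 for E18.5, 7.38 for PN2, 6.57 and 7.83 for the PN14 mice, 4.99 for PN28 and 6.31 for the adult. With library size all 4 fell, by 1.03 to 1.25 on the log2 scale. Under that scaling 47.6% of all genes fell and the median of all genes was -1.08.

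Psmd10 (gankyrin), a chaperone of the 19S base with a known role in cell proliferation, went down. Its normalized CPM were 18.3 for E18.5, 17.7 for PN2, 11.6 and 12.4 for the PN14 mice, 11.9 for PN28 and 10.6 for the adult, with E18.5 and PN2 above all later libraries. As for Psmg1, the share of all genes with this order was not counted. Psmd10 fell by 0.79 ± 0.21 (SE, adjusted p = 0.0236) from E18.5 to adult. The Wald test of DESeq2 called neither this fall (adjusted p = 0.0658) nor that of Psma8 (adjusted p = 0.207). The other chaperones of the base, Psmd5 and Psmd9, gave 0.07 ± 0.19 (SE, adjusted p = 0.766) and 0.38 ± 0.21 (SE, adjusted p = 0.173), with normalized CPM of 25.6 for E18.5, 27.1 for PN2, 26.6 and 25.3 for the PN14 mice, 24.8 for PN28 and 26.9 for the adult for Psmd5 and 19.8 for E18.5, 21.8 for PN2, 28.1 and 24.4 for the PN14 mice, 28.4 for PN28 and 25.7 for the adult for Psmd9. The 10 proliferation markers went from a summed FPKM of 209 at E18.5 to 4.43 in the adult, and 9 of them fell, but their part in the level of Psmd10 was not tested. Psmc3ip, the entry that is not a subunit, had 9.37 for E18.5, 9.71 for PN2, 15.1 and 14.04 for the PN14 mice, 15.1 for PN28 and 15.1 for the adult and a log2 fold change of 0.69 ± 0.22 (SE, adjusted p = 0.0387), and 385 bases of its exons are shared with Mlx on the other strand.

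To contrast the classes directly, the 16882 genes were tested again with each library scaled to the summed counts of the 14 constitutive core genes, a scaling chosen after the values were seen. The result asks which genes moved more or less than the core and does not rest on TMM. From E18.5 to adult 2 members rose relative to the core, against 11.1% of all genes, and 9 fell, against 49.9%. The risers were Psme4, by 1.76 ± 0.34 (SE, adjusted p = 0.000902), and Psmd8, by 0.82 ± 0.28 (SE, adjusted p = 0.0237). The 9 that fell were Psma8, all 4 core chaperones (by 0.94 to 1.16), the 19S chaperones Psmd10 and Psmd5, the PA28 subunit Psme2 and the core subunit Psma5. Psmd10 fell by 1.73 ± 0.31 (SE, adjusted p = 0.000567) and Psme2 by 1.18 ± 0.27 (SE, adjusted p = 0.00261). Psma5 fell by 0.74 ± 0.25 (SE, adjusted p = 0.0249) although it is itself a part of the sum. The 14 core genes set this scale and are members, so the share of members that fell cannot be weighed against that of all genes. Of the 17 subunits of the 19S particle 16 did not pass, and the medians were 0.15 for the ATPases and 0.46 for the non-ATPases. Psmb8 and Psmb9 gave 0.86 ± 0.43 (SE, adjusted p = 0.0981) and 0.77 ± 0.50 (SE, adjusted p = 0.192).

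From PN2 to PN14 Psmb8 and Psmb9 were the members that rose relative to the core, by 1.34 ± 0.39 (SE, adjusted p = 0.0169) and 1.22 ± 0.45 (SE, adjusted p = 0.0452), against 8.59% of all genes. Psma5, Psma8, Psmd10 and Psmg1 fell relative to the core, against 34.6%. With a mean of at least 1 CPM required, 1 member rose and 2 fell relative to the core. Psmd10 fell by 1.08 ± 0.25 (SE, adjusted p = 0.00582) and Psma5 by 0.71 ± 0.21 (SE, adjusted p = 0.0195). Psme4 missed the threshold in this interval, with 0.77 ± 0.29 (SE, adjusted p = 0.0533).

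In FPKM per gene as a percentage of the mean core subunit, which is a ratio within a library, the 19S particle was at 61.7 for E18.5, 63.5 for PN2, 67.8 and 64.2 for the PN14 mice, 71.03 for PN28 and 77.3 for the adult. The adult value lay above all others and the early and PN14 values ran close together. Psme4 was at 15.9 for E18.5, 16.5 for PN2, 32.5 and 23.7 for the PN14 mice, 43.8 for PN28 and 53.3 for the adult. The PA28 pair of Psme1 and Psme2 went the other way, from 46.01% at E18.5 to 29.4% ± 1.95 at PN14 (SD, n = 2) and 25.6% in the adult. The core chaperones were at 21.3 for E18.5, 18.1 for PN2, 11.4 and 13.7 for the PN14 mice, 11.2 for PN28 and 10.1 for the adult, and the 19S chaperones at 13.9 for E18.5, 11.95 for PN2, 7.44 and 7.89 for the PN14 mice, 7.41 for PN28 and 6.63 for the adult. For both chaperone groups each later library lay below each early one. This order was not particular to them: the PA28 pair, Psme3 and Psmf1 had it too. The immunoproteasome stayed between 3.24% and 6.58%.

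**Figure D5:**
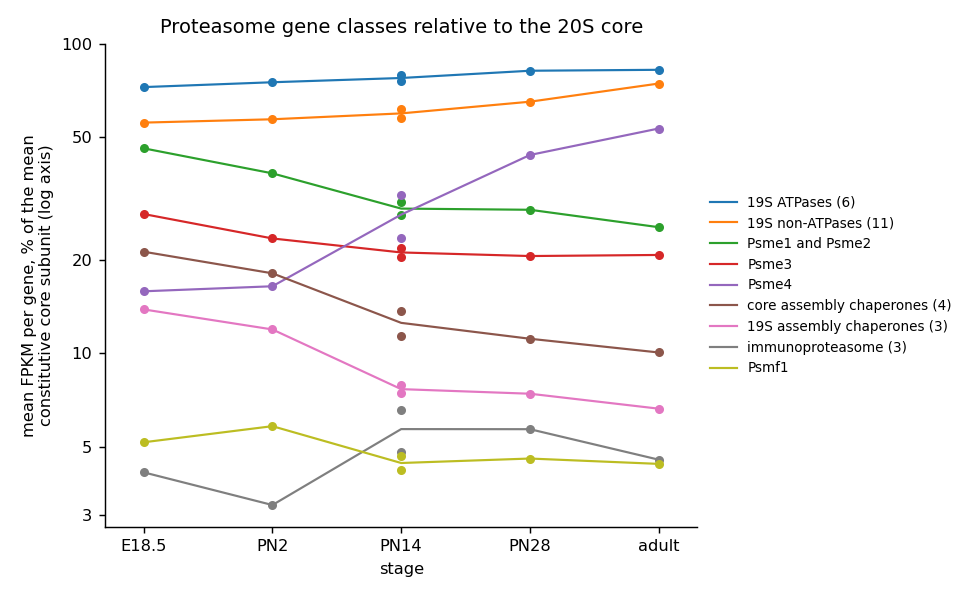
Mean FPKM per gene of each class as a percentage of the mean constitutive core subunit (y axis, log scale) by stage (x axis), with the number of genes in brackets. Points are libraries and lines pass through the PN14 mean. Psme4 climbed from 15.9% at E18.5 to 53.3% in the adult and crossed the Psme1 and Psme2 line near PN14, while both chaperone groups descended.

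Over the 4 successive intervals, calls were made in 1 only. From PN2 to PN14 9 members rose, against 16.6% of all genes, and 1 fell, against 15.0%. The share of members that rose was thus near the background and that of members that fell below it. The risers were Psma3, Psmb5, Psmb7, Psmb8, Psmb9, Psmb10, Psmd6, Psmd12 and Psme4, and Psma8 fell. The lid subunits Psmd12 and Psmd6 rose by 0.99 ± 0.23 (SE, adjusted p = 0.0249) and 0.87 ± 0.22 (SE, adjusted p = 0.0318), Psmb5 by 1.03 ± 0.21 (SE, adjusted p = 0.0194), Psmb7 by 0.99 ± 0.29 (SE, adjusted p = 0.0481) and Psma3 by 0.82 ± 0.23 (SE, adjusted p = 0.042). At the low end of their classes were Psmb2 at 0.01 ± 0.17 (SE, adjusted p = 0.956), Psmd3 at 0.14 ± 0.22 (SE, adjusted p = 0.668), Psmc2 at 0.37 ± 0.23 (SE, adjusted p = 0.256) and Psma5 at -0.20 ± 0.19 (SE, adjusted p = 0.448), none of which passed. With library size 1 member rose (Psmb8) and 3 fell (Psma5, Psma8 and Psmd10), against 1056 up and 5942 down among all 16882 genes. The median log2 fold change was 0.41 for the members and -0.01 for all genes with TMM. The difference of 0.42 was the same with library size, since scaling shifts all genes nearly alike.

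The intervals before PN2 and after PN14 gave no call among the members by edgeR's quasi-likelihood test, and no member had an unadjusted p under 0.05 there. Among all genes 0.0296% were called between E18.5 and PN2, 0.0178% between PN14 and PN28 and 0.521% between PN28 and the adult. Neither the Wald test of DESeq2 nor the exact test of edgeR called a member in these intervals, though each gave 1 member an unadjusted p under 0.05 from PN14 to PN28. The member medians in these intervals were 0.23, 0.09 and 0.09 on the log2 scale, beside a median of -0.01 for all genes in all 3. From PN14 to PN28 the member median was -0.0015 without PN14 replicate 2 and 0.14 without replicate 1. Scaled by library size, it was -0.14 (all genes -0.25) up to PN28 and -0.04 (all genes -0.15) thereafter.

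Of 37 genes related to the proteasome 36 had an entry, and 22 of them rose and none fell from E18.5 to adult, against 27.4% of all genes in either direction. From PN2 to PN14 11 rose, against 16.6%. With library size 5 rose and 6 fell from E18.5 to adult, against 8.88% up and 47.6% down among all genes. Under the same scaling none rose and 5 fell from PN2 to PN14, against 1056 up and 5942 down among all 16882 genes. Among the transcription factors of proteasome genes, Nfe2l1 had FPKM of 85.6 for E18.5, 96.8 for PN2, 149 and 129 for the PN14 mice, 152 for PN28 and 209 for the adult and rose by 2.33 ± 0.47 (SE, adjusted p = 0.00866). Its processing protease Ddi2 rose by 1.44 ± 0.29 (SE, adjusted p = 0.00897), the deglycosylase Ngly1 by 1.47 ± 0.21 (SE, adjusted p = 0.00292) and Nfe2l2 by 0.83 ± 0.20 (SE, adjusted p = 0.0174). The core maturation factor Pomp rose by 0.92 ± 0.24 (SE, adjusted p = 0.0209), with FPKM of 119 for E18.5, 119 for PN2, 143 and 144 for the PN14 mice, 124 for PN28 and 110.3 for the adult, and was at -0.11 with library size.

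Of 9 partners of the proteasome, Pomp included, 7 rose from E18.5 to adult, and Txnl1 and Akirin2 did not pass, at 0.40 ± 0.23 (SE, adjusted p = 0.187) and -0.03 ± 0.22 (SE, adjusted p = 0.913). The ubiquitin receptor Adrm1 rose by 1.42 ± 0.25 (SE, adjusted p = 0.00573), the lid component Shfm1 by 0.63 ± 0.21 (SE, adjusted p = 0.046), and the deubiquitinases Usp14 and Uchl5 by 0.66 ± 0.22 (SE, adjusted p = 0.0461) and 0.95 ± 0.21 (SE, adjusted p = 0.0117). Zfand5, which activates the 26S proteasome, rose by 2.56 ± 0.32 (SE, adjusted p = 0.00217) and the proteasome-binding protein Ecm29 (entry AI314180) by 2.08 ± 0.39 (SE, adjusted p = 0.00664). Of 10 shuttle and p97 genes, Ddi2 and Ngly1 included, 6 rose. The p97 cofactors Ufd1l and Nploc4 and the shuttle Ubqln4 were among them, by 1.37 to 1.56, while the ATPase Vcp (p97, adjusted p = 0.0538) and the shuttles Ubqln1 and Ubqln2 at 0.25 ± 0.22 (SE, adjusted p = 0.366) and 0.11 ± 0.19 (SE, adjusted p = 0.641) did not pass. Of 6 ubiquitin and E1 genes 1 rose and none fell, with a median of -0.05, and Rps27a was at -0.83 ± 0.34 (SE, adjusted p = 0.082). Of the antigen presentation genes, Tap2, Tapbp, B2m, H2-K1 and H2-D1 rose, and Tap1, Nlrc5 and Irf1 did not pass. Tap2 had FPKM of 3.12 for E18.5, 3.42 for PN2, 4.85 and 6.09 for the PN14 mice, 5.93 for PN28 and 4.78 for the adult and rose by 1.64 ± 0.22 (SE, adjusted p = 0.00267). Tap1 had FPKM of 1.75 for E18.5, 1.75 for PN2, 1.61 and 3.05 for the PN14 mice, 1.58 for PN28 and 1.01 for the adult and a log2 fold change of 0.23 ± 0.39 (SE, adjusted p = 0.64), and B2m rose by 0.79 ± 0.23 (SE, adjusted p = 0.0286). Nlrc5, the activator of class I genes, lay between 0.09 and 0.26 FPKM.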

How the data were processed

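Polyadenylated RNA was sequenced as paired ends in 6 libraries of wild-type FVB gastrocnemius. Reads were aligned to mm9 with TopHat2 2.0.5, per the labels, and fragments on RefSeq gene models were estimated with RSEM (version not given in the sources used here). The authors deposited the expected count of each gene, which is not normalized, and the FPKM, which they scaled to gene length and library total. The strand setting of the counting is not given in the sources used here.

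Expected counts were rounded and analysed with edgeR 4.0.16 in R 4.3.3 (TMM, filterByExpr, quasi-likelihood test, all libraries in a single fit, 16882 genes tested, Benjamini-Hochberg adjustment over all of them, calls at an adjusted p under 0.05). Only the PN14 mice gave a residual degree of freedom (1, with 4.86 added by the prior), the common biological coefficient of variation was 0.188, and p-values therefore treat every stage as if it varied like PN14. The PN14 libraries were separate libraries (chi-square 4788870 on 16161 degrees of freedom). The standard error of a fold change was taken from the fold change and the F statistic. Sampling error of counts is small at this depth and the number of mice limits the precision. The test was run on simulated counts with the common dispersion, in which 200 of 16356 genes were raised by a log2 fold change of 2. The median estimate for the raised genes was 2.01 from PN2 to PN14. The simulation held no shift in library composition and the same spread at every stage. It therefore cannot speak to the scaling or to the stages without a replicate.

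Shares and ratios were computed on FPKM. Genes were placed with GENCODE M1 (mm9), in which the exons of 12 members overlap another gene, and promoters came from RefSeq (GRCm38.p6), whose coordinates are not interchangeable with mm9. Tables and plots were made in Python 3.11.15 (pandas 2.3.3, numpy 2.4.6, matplotlib 3.10.9, scipy 1.17.1). The members, the classes, the related genes and the markers were chosen with earlier results of these data known. Every member was accounted for. Named with values in each library were the catalytic and immunoproteasome subunits, the activators, inhibitor and assembly factors, Psmd2, Psmd4, Psmd14 and the extremes of each class. Alternatives were library size or DESeq2 size factors (DESeq2 1.42.0), the Wald test of DESeq2, the exact test of edgeR, no filter, a mean of at least 1 CPM, a 2-fold threshold, raw counts or 1 FPKM added for shares, and each PN14 replicate left out. Some related genes and sequence stretches are not reported here.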

Additional observations from a re-analysis of the deposited data

How the results depend on the processing

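The normalization decided the direction of moderate values. With library size the counts of members called were 4 of 48 from PN2 to PN14 (1 rose, 3 fell) and 10 from E18.5 to adult (1 rose, 9 fell), in place of 10 and 34. Among all 16882 genes 1056 rose and 5942 fell with library size from PN2 to PN14, and 1499 rose and 8032 fell from E18.5 to adult. Scaled to the core, a choice made after seeing the data, the counts of members called were 6 and 11. A 2-fold threshold left 6 from PN2 to PN14. Relative to the core, a mean of at least 1 CPM left 3 from PN2 to PN14 (1 rose, 2 fell). The Wald test of DESeq2 called 28 members up and none down from E18.5 to adult, and so neither Psmd10 nor Psma8. It also did not call the rises of Psma4, Psma6, Psmf1 and Psmc3ip (adjusted p = 0.14 for Psmc3ip). Other filters, size factors and tests gave 7 to 14 calls from PN2 to PN14 and 28 to 34 from E18.5 to adult, and no setting gave a call in the other 3 intervals. The median of the members minus that of all genes was 0.42 and 0.90, and it was 0.76 from E18.5 to adult with a mean of at least 1 CPM, where fewer genes are tested.

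With library size the log2 fold change from E18.5 to adult turned to -0.21 for Psmb6, -0.41 for Psmb10, -0.83 for Psma5, -0.40 for Psma1 and for Psma2, -0.30 for Psma4, -0.31 for Psma6, -0.17 for Psmb1, -0.21 for Psmb4, -0.20 for Psmd3, -0.45 for Psmb2, -0.0018 for Psmb3, -0.069 for Psmc4, -0.33 for Psmc3ip, -0.27 for Psmd13, -0.95 for Psmd5, -0.65 for Psmd9, -0.52 for Psme1, -0.52 for Psme3, -0.31 for Psmf1, -0.20 for Nfe2l2, -0.11 for Pomp, -0.40 for Shfm1, -0.36 for Usp14, -0.072 for Uchl5, -0.63 for Txnl1, -0.78 for Ubqln1, -0.91 for Ubqln2, -0.24 for B2m, -0.26 for Tapbp, -0.71 for Irf1, -0.50 for Nlrc5 and -0.79 for Tap1. From PN2 to PN14 it turned to -0.15 for Psmb1, -0.64 for Psmb2, -0.30 for Psmc2 and -0.52 for Psmd3. With a mean of at least 1 CPM, Psmd5 was at -0.0088 from E18.5 to adult and Psmb2 at -0.028 from PN2 to PN14.

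Without either PN14 replicate the fit has no residual degree of freedom, so only values can be given. They ran from -0.032 to 0.057 for Psmb2 and from -0.064 to 0.017 for Psme2 from PN2 to PN14. The log2 ratio of Psmb10 to Psmb7 over that interval ran from -0.29 to 0.33, and was -0.0088 with 1 FPKM added. The cause was not tested. No paired analysis was possible because PN14 is the only stage with numbered replicates.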
